A study of Mus musculus with 12 samples.

Results

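The 9 genes described here encode the cyclic AMP (cAMP) machinery that keeps the mouse oocyte arrested in prophase of the first meiotic division. They were chosen by symbol as the receptor Gpr3, the G protein subunit Gnas, the adenylyl cyclase Adcy3, the phosphodiesterase Pde3a and 5 subunits of protein kinase A (PKA), namely Prkaca, Prkacb, Prkar1a, Prkar2a and Prkar2b. They are 9 of the 56691 genes in the count table, and all 9 were found there and passed the filter on low counts in every comparison. None of the 9 was called different between Alkbh5 knockout and wild-type oocytes at any stage, where 0.0977% to 2.54% of all genes tested were called. Between the germinal vesicle (GV) stage and metaphase II (MII) in wild-type oocytes 30.9% of all genes were called, and of the 9 only Gnas, which fell by 1.21 ± 0.49 (SE) on the log2 scale while the median gene fell by 1.06. The Gnas call was lost under several alternatives, among them another scaling and leaving out any of 3 of the 4 libraries.

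In the arrested oocyte, the receptor GPR3 activates the stimulatory G protein encoded by Gnas, which in turn activates adenylyl cyclase. The cAMP that is made frees the catalytic subunits of PKA from its regulatory subunits, and active PKA holds CDK1 inactive through the kinase WEE2 and the phosphatase CDC25B. PDE3A destroys cAMP, and cyclic GMP that enters from the surrounding follicle cells through gap junctions inhibits it until ovulation is triggered.

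Polyadenylated RNA was sequenced from wild-type (WT) and Alkbh5−/− (KO) oocytes labelled GV, germinal vesicle breakdown (GVBD) or MII, with 2 libraries in each of 6 groups. ALKBH5 removes N6-methyladenosine from RNA, and the question put to these genes was whether their mRNA differed with genotype or over maturation. By the study's methods, full-grown oocytes were taken from 3-week-old C57BL/6 females primed with gonadotropin (PMSG), stripped of cumulus cells and sampled after 0, 4 or 16 h of culture. The KO mice carried a deletion of exon 1 with the start codon in all their cells, and each library was a small pool of oocytes, whose number the methods and a legend give differently. Oocytes of all groups had been held in milrinone, an inhibitor of the PDE3 enzymes, and matured in medium free of it. The study states that most KO oocytes did not undergo GVBD, so that KO libraries labelled GVBD or MII may hold oocytes of earlier stages, and genotype and stage cannot be told apart there. In such pools, less RNA per oocyte and fewer oocytes cannot be told apart either. For the GV stage, the study reports smaller KO oocytes and a higher ratio of non-surrounded to surrounded nucleoli. Growth state and genotype therefore cannot be told apart at GV. The labels do not say whether the 2 libraries of a group came from different mice, so p-values measure the spread between these libraries.

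Total counts per library, in units of 1e6, ranged from 28.6 to 40.2. Values below are on the spike-in scale, which divides each count by a factor set in proportion to the counts of synthetic ERCC RNAs added to each tube. The factor ran from 0.549 to 2.08. In each of the 6 groups, replicate 1 held more endogenous counts per ERCC count than replicate 2. Alkbh5 itself had between 5355 and 10181 counts in WT libraries and between 54 and 143 in KO libraries. All 13 oocyte markers were detected in every library, at a summed 19303 to 36381 CPM (counts scaled to 1e6 per library). Of 19 cumulus and granulosa cell markers, 10 to 15 were detected, at a summed 45.1 to 88.6 CPM. Among them Cyp19a1, with 577 to 2225 counts per library, and Nr5a2, with 292 to 480, had the highest medians. Amhr2 and Nppc had 0 counts in every library. The 6 blood cell markers differed by library, from 1.39 to 5527 CPM. They reached 3062 and 5311 CPM at KO GV, 16.5 and 5527 at WT GV, 2917 and 3200 at WT GVBD, and 4.58 and 8.86 at KO GVBD. At MII they stood at 9.16 and 38.5 CPM in WT and at 916 and 1.39 CPM in KO. Their part in the results below was not tested.

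Cytoplasmic polyadenylation elements near the end of the 3′ UTR govern when stored oocyte mRNAs are read, and the method captured mRNA by its poly(A) tail, so the ends of the 9 transcripts were searched. The letters TTTTAT or TTTTAAT, on the transcript strand only, were found within the last 100 bases of 3 of the 9, against 17.8% of 19640 genes with a 3′ UTR of at least that length. The 3 stretches that hold them are printed 5′ to 3′ with those letters in capitals, and that of Gnas is printed with its AATAAA poly(A) signal in capitals because its mRNA was the one called lower at MII in WT. The positions are on GRCm38. Adcy3 lies at chr12:4213487-4213516 on the plus strand, Prkacb at chr3:146729604-146729633 on the minus strand, Prkar2b at chr12:31958476-31958505 on the minus strand and Gnas at chr2:174346709-174346738 on the plus strand, all within the annotated 3′ UTR.
Adcy3: agaacaggactgTTTTATtaaaagctttac
Prkacb: gaaaatgtgttTTTTAATtcatcaataacc
Prkar2b: ccttataataaagcacacTTTTATaataaa
Gnas: cattaaaaaatcAATAAAaattaaaaatga
In the letters of Adcy3 the element began 26 bases before the annotated end, in those of Prkacb 49 and in those of Prkar2b 12. The element of Prkar2b stood between a pair of AATAAA signals, which began 24 and 6 bases before the end. A poly(A) signal, AATAAA or ATTAAA within the last 40 bases, was found in 8 of the 9 transcripts, against 73.5% of all genes searched. The exception was Pde3a, whose annotated 3′ UTR of 8555 bases was the longest of the 9, while that of Gnas, 356 bases, was the shortest. These are matches of letters in the annotated ends, and which ends the oocyte used was not measured.

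The level of each mRNA was compared per kilobase of exon in the WT GV libraries. Prkar1a was highest at 370 ± 17.5 (SD, n = 2) spike-in-scaled counts per kb, followed by Prkar2b at 305 ± 42.9 and Gnas at 259 ± 51.6. Prkar2a followed at 166 ± 6.94 and Pde3a at 123 ± 1.08. The last 4 were Prkaca at 65.4 ± 23.0, Gpr3 at 41.3 ± 8.03, Prkacb at 10.3 ± 4.06 and Adcy3 at 7.90 ± 6.07. Prkar2b overlapped Gnas and Prkacb overlapped Adcy3 between libraries, while the other neighbours in this order did not overlap. The place of Gnas rests on the length used, since its exons add up to 11186 bases over many alternative starts but its longest transcript is 3947 bases. Divided by that length, Gnas was highest at 734 ± 146 per kb.

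The cAMP pathway is unevenly represented in the oocyte, as the plot of levels by family shows. Gpr3 stood at 41.3 per kb, against 5.12 for Gpr12, a related receptor, while Gpr6, the third of that family, had 0 counts in both WT GV libraries, which allows up to 3 counts in each. Adcy3, which is held to be the main cyclase of the mouse oocyte, was by its mean the sixth most abundant of 10 cyclase mRNAs. Its libraries, at 3.61 and 12.2 per kb, overlapped those of Adcy1 (15.0 ± 5.61), Adcy6 (7.79 ± 7.80) and Adcy7 (5.58 ± 0.409), so this place is not resolved. Adcy10, the soluble cyclase, stood highest at 52.2 ± 10.4 per kb, then Adcy9 at 29.7 ± 2.16 and Adcy5 at 24.5 ± 3.23, and 4 cyclases lay above Adcy3 without overlap. Per kilobase of exon, Pde3a was the second most abundant of 16 cAMP phosphodiesterase mRNAs, below Pde8a at 151 ± 6.10 and above its relative Pde3b at 62.1 ± 0.862. Pde1c stood next at 52.4 ± 5.0, but its exons add up to 20067 bases and its longest transcript is 8766. For Pde3a these lengths are 12737 and 12302, so the distance between Pde3a and Pde1c rests on the length used. The most abundant listed genes around the 9 were the PKA target Wee2 at 6309 ± 124 per kb, the A-kinase anchoring protein Akap7 at 1969 ± 71.7 and the oocyte gap junction gene Gja4 at 1322 ± 442.

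Gpr3, on chromosome 4 (133209340-133212536), encodes the receptor that keeps the stimulatory G protein active without an added ligand. In spike-in-scaled counts, its libraries of WT GV read 97.3 and 128, those of WT GVBD 169 and 77.9 and those of WT MII 136 and 66.5. The libraries of KO GV read 147 and 125, those of KO GVBD 286 and 199 and those of KO MII 255 and 95.3. Only at GVBD were both KO libraries above both WT libraries. Here and for the genes below, the share of all genes whose libraries lay apart in this way was not counted. The KO against WT difference was 0.98 ± 0.62 (SE) on the log2 scale at GVBD (95% interval −0.30 to 2.26, adjusted p = 0.493), 0.27 ± 0.45 at GV and 0.79 ± 0.99 at MII. Gpr3 shares 204 bases of exon, 7.46% of its own, with Cd164l2 on the opposite strand, which had 5292 to 12211 counts per library against 81 to 255 for Gpr3. Use of strand in the counting was not stated, so reads of the shared part cannot be assigned to either gene.

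Gnas, on chromosome 2 (174284320-174346744), encodes the alpha subunit of the stimulatory G protein and, from other promoters, further transcripts of an imprinted locus that the counts do not separate. The libraries of WT GV read 2489 and 3306, those of WT GVBD 2001 and 1267 and those of WT MII 1485 and 1019. The libraries of KO GV read 4528 and 2795, those of KO GVBD 2256 and 3391 and those of KO MII 3008 and 1315. In WT, both GVBD and both MII libraries lay below both GV libraries, and in KO the stages overlapped. From GV to MII the WT level fell by 1.21 ± 0.49 on the log2 scale (95% interval −2.17 to −0.25, edgeR quasi-likelihood test, adjusted p = 0.0452), to a fold of 0.432, beside a fall of 1.06 for the median gene. The KO change was −0.76 ± 0.64 (adjusted p = 0.491). The difference between the genotypes in this change was itself 0.45 ± 0.74 (95% interval −1.16 to 2.06) and did not pass the test. The WT call held in the DESeq2 test (adjusted p = 0.00763) and was lost without the filter on low counts (adjusted p = 0.0529), in the fit of all 12 libraries (adjusted p = 0.110) and with TMM scaling (−0.27, adjusted p = 0.343). It was also lost without replicate 1 or 2 of WT GV and without replicate 2 of WT MII (adjusted p = 0.414, 0.666 and 0.1003). Of the 4 libraries, replicate 2 of WT GV had blood cell markers at 5527 CPM and the other 3 at no more than 38.5. Without replicate 2 of WT GV the difference was −0.99, and without replicate 1 of WT GV it was −1.40. Without replicate 1 of WT MII it was −1.51, and without replicate 2 of WT MII −0.96. The part of the blood cell markers in this difference was not tested. Over all alternatives the adjusted p ran from 0.00763 to 0.666.

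Adcy3, on chromosome 12 (4133103-4213525), encodes a membrane cyclase that makes cAMP on activation by the G protein. It was measured at few counts, from 0 to 69 per library. The libraries of WT GV held 19 and 54 counts, those of WT GVBD 4 and 69 and those of WT MII 0 and 46, and the KO libraries held 58 and 10, 13 and 28, and 8 and 11. The libraries of a group lay far apart, as at WT GVBD, so no order of the groups can be read from these values. The MII against GV difference was −2.11 ± 1.06 on the log2 scale in WT (adjusted p = 0.124) and −2.87 ± 1.35 in KO (adjusted p = 0.219). Adcy3 shares 1380 bases of exon, 22.1% of its own, with Cenpo on the opposite strand, which had 1830 to 6897 counts per library.

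Pde3a, on chromosome 6 (141249269-141507448), encodes the phosphodiesterase that ends the arrest by destroying cAMP. The libraries of WT GV read 1561 and 1581 spike-in-scaled counts, those of WT GVBD 2819 and 1151 and those of WT MII 1680 and 1135. The libraries of KO GV read 2299 and 1768, those of KO GVBD 3198 and 2727 and those of KO MII 2349 and 1705. At GV and at MII both KO libraries lay above both WT libraries, although at GVBD the lower KO library lay below the higher WT library. The KO against WT difference was 0.37 ± 0.21 on the log2 scale at GV (95% interval −0.15 to 0.89, adjusted p = 0.415), 0.58 ± 0.54 at GVBD and 0.53 ± 0.82 at MII. From GV to MII the difference was −0.16 ± 0.49 in WT and −0.00 ± 0.59 in KO, while the median gene fell by 1.06 and 1.17.

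Prkaca and Prkacb encode the catalytic subunits of PKA, C alpha and C beta. For Prkaca, on chromosome 8 (83972993-83996443), the libraries of WT GV read 122 and 203, those of WT GVBD 154 and 230.2 and those of WT MII 272 and 167, and the KO libraries of the same stages read 300.4 and 258, 529 and 217, and 384 and 268. Both KO libraries lay above both WT libraries at GV, and the groups overlapped at GVBD and MII. The KO against WT difference was 0.78 ± 0.41 (adjusted p = 0.376) for GV oocytes, 0.95 ± 0.61 (adjusted p = 0.499) for GVBD oocytes and 0.57 ± 0.92 for MII oocytes.

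For Prkacb, on chromosome 3 (146729574-146812990), the libraries of WT GV read 65.3 and 116, those of WT GVBD 145 and 145 and those of WT MII 110 and 28.9. The KO libraries read 268 and 166, 265 and 165, and 131 and 78.1. Both KO libraries lay above both WT libraries at GV and at GVBD. At GV the difference was 1.26 ± 0.50 on the log2 scale, a fold of 2.39 (95% interval 0.03 to 2.49), with an adjusted p of 0.271 in edgeR. At GVBD it was 0.57 ± 0.59 and at MII 0.59 ± 1.02. Leaving out single libraries, the GV difference ran from 0.88, without replicate 1 of KO GV, to 1.73, without replicate 2 of WT GV, and passed the test in none of these fits.

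Prkar1a, Prkar2a and Prkar2b encode the regulatory subunits RI alpha, RII alpha and RII beta, which bind cAMP and hold the catalytic subunits inactive. For Prkar2a, on chromosome 9 (108689314-108750436), the libraries of WT GV read 1028 and 1090.1, those of WT GVBD 1462 and 862 and those of WT MII 1354 and 724. The libraries of KO GV read 1990.0 and 1546, those of KO GVBD 1493 and 1561 and those of KO MII 1842 and 1194. Both KO libraries lay above both WT libraries at GV and at GVBD. The GV difference of 0.74 ± 0.22 on the log2 scale (95% interval 0.20 to 1.28) had an adjusted p of 0.195 in edgeR. The DESeq2 test gave an adjusted p of 0.0313 with a fold below the minimum of 2. In that DESeq2 test 1713 of 19452 genes had an adjusted p under 0.05, 1518 of them higher in KO. With TMM scaling the GV difference was 0.38 ± 0.15 (adjusted p = 0.388).

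For Prkar1a, on chromosome 11 (109649405-109669656), the libraries of WT GV read 1547 and 1654, those of WT GVBD 1409 and 991 and those of WT MII 2009 and 1323. The libraries of KO GV read 2454 and 1780, those of KO GVBD 1491 and 1863 and those of KO MII 2275 and 1326. The KO libraries lay above the WT libraries at GV and GVBD, and the groups overlapped at MII. The KO against WT differences were 0.40 ± 0.23, 0.48 ± 0.52 and 0.11 ± 0.81 in the order GV, GVBD and MII.

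For Prkar2b, on chromosome 12 (31958476-32061296), the libraries of WT GV read 1003 and 1224, those of WT GVBD 1118 and 1285 and those of WT MII 1215 and 1037. The libraries of KO GV read 2485 and 1047, those of KO GVBD 1154 and 978 and those of KO MII 1703 and 1082. The GV groups overlapped, because the KO libraries differed more from each other than either did from the WT mean of 1113. The KO against WT difference was 0.66 ± 0.41 at GV (adjusted p = 0.456), −0.17 ± 0.51 at GVBD and 0.31 ± 0.83 at MII.

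**Figure D1:**
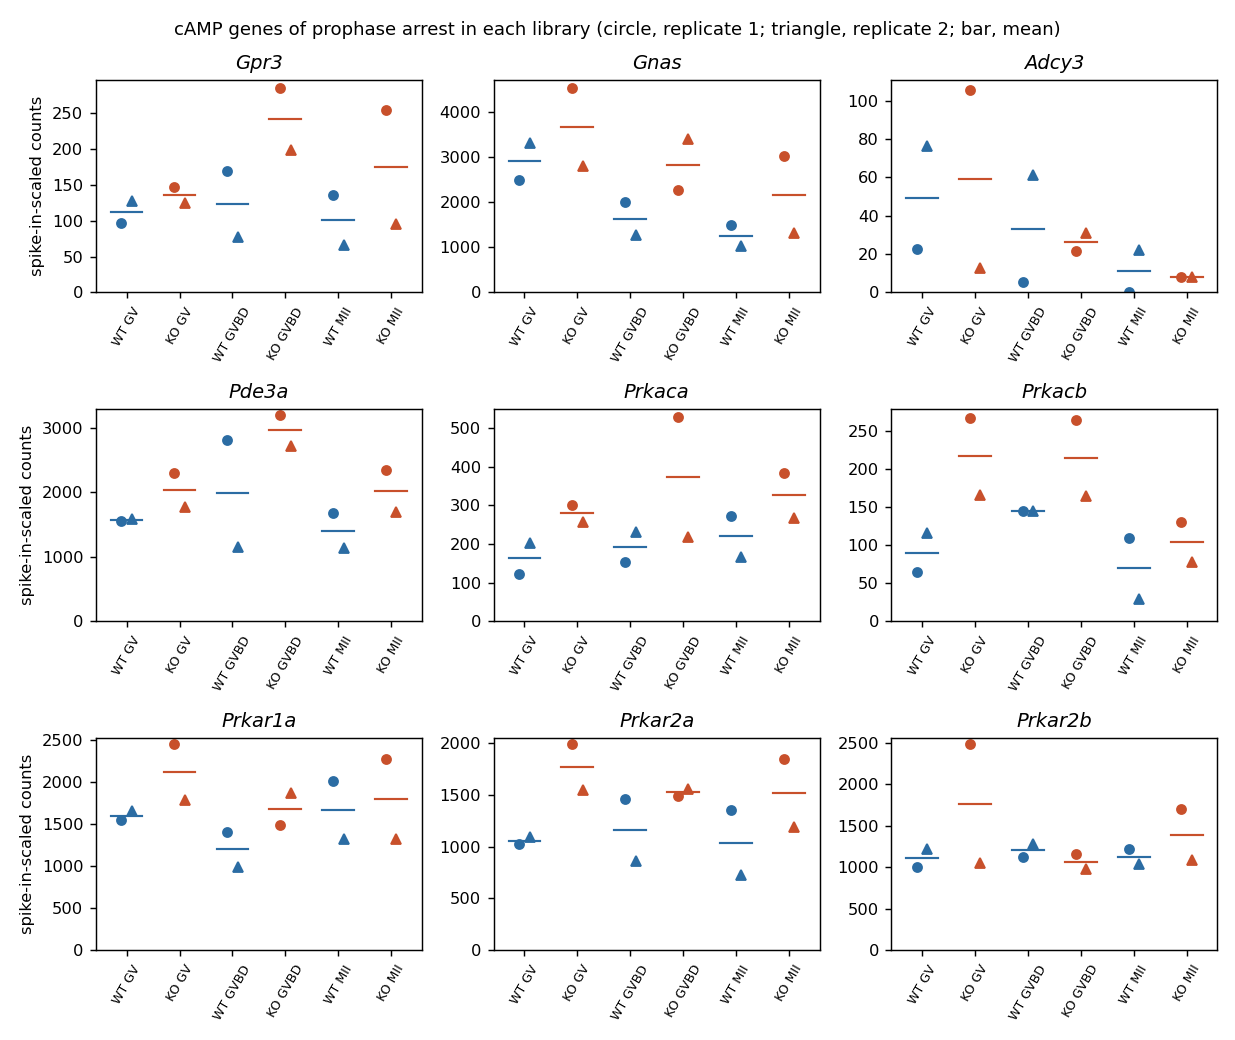
Spike-in-scaled counts (y axes, from 0) of the 9 genes in each of the 12 libraries by group (x axis), with WT in blue and KO in red, circles for replicate 1, triangles for replicate 2 and bars for group means. Gnas falls from 2489 and 3306 at WT GV to 1485 and 1019 at WT MII, and the KO libraries of Prkacb at GV, 268 and 166, lie above the WT libraries.

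Taking the 9 genes together, KO against WT at GV gave no called gene, with 0 of 9 past an adjusted p of 0.05 and a fold of 2 against 0.0977% of all 19452 genes tested. At GVBD 0 of 9 were called, against 2.54% of 19462 genes, and at MII 0 of 9, against 0.803% of 17566 genes. In the edgeR test 2 of 9 had an unadjusted p under 0.05 at GV, Prkacb and Prkar2a, against 17.9% of all genes. At GVBD and MII 0 of 9 did, against 14.9% and 7.32% of all genes. DESeq2 also called 0 of 9 at each stage, against 3.48%, 4.63% and 1.97% of all genes in stage order. Of the 9 members, 9 had a log2 difference above 0 in GV oocytes, 7 in GVBD oocytes and 8 in MII oocytes. The share of all tested genes above 0 was not counted, so these numbers cannot be set against it. On the spike-in scale the median of all tested genes lay above 0 too, at 0.36, 0.23 and 0.30 in the order of the stages. The medians of the 9 were 0.40, 0.57 and 0.55. The cause of the shift over all genes was not tested. With TMM scaling the GV differences of Gpr3, Gnas and Adcy3 and the MII difference of Prkar1a lay below 0. The 95% intervals in the plot of KO against WT are wide, above all at MII, where that of Gpr3 ran from −1.15 to 2.74 and that of Gnas from −0.82 to 2.39.

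**Figure D2:**
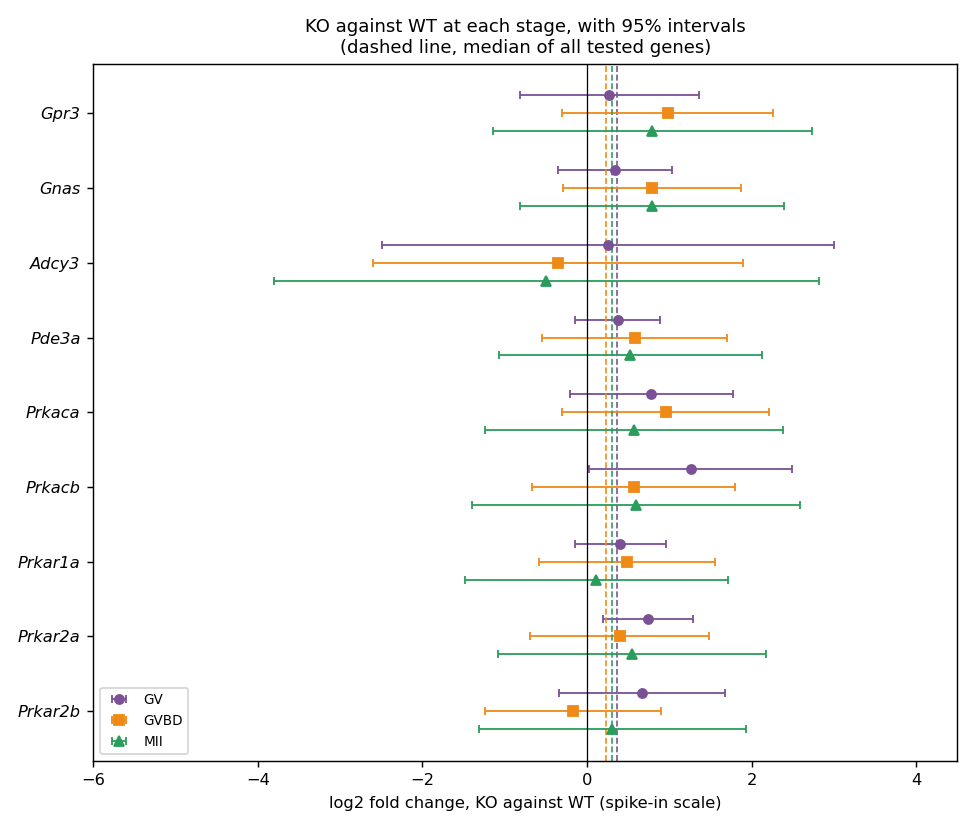
Log2 fold change of KO against WT on the spike-in scale (x axis) with 95% intervals for the 9 genes (y axis) at GV (circles), GVBD (squares) and MII (triangles), 2 libraries per group. Dashed lines mark the median of all tested genes at each stage, 0.36, 0.23 and 0.30, and the intervals of Prkacb (0.03 to 2.49) and Prkar2a (0.20 to 1.28) at GV are the ones that do not cross 0.

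When the stages were fitted together with stage as a covariate, 0 of 9 genes were called between KO and WT, against 1.26% of 22004 genes, and 0 of 9 by DESeq2, against 6.16%. In edgeR, 3 of 9 had an unadjusted p under 0.05, against 18.8% of all genes. Prkaca had a difference of 0.77 ± 0.32 on the log2 scale in edgeR (adjusted p = 0.211), Gnas 0.64 ± 0.27 (adjusted p = 0.219) and Prkar2a 0.56 ± 0.24 (adjusted p = 0.230). The largest estimate was that of Prkacb at 0.80 ± 0.38 (adjusted p = 0.276), while Adcy3 stood at −0.19 ± 0.84. The median over the 9 was 0.56, beside 0.29 over all genes.

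Between GV and GVBD no gene of the 9 was called in either genotype. In WT 0 of 9 were called, against 0.0511% of 19566 genes, and in KO 0 of 9, against 0.22% of 19064 genes. An unadjusted p under 0.05 in edgeR was found for 0 of 9 in both, against 6.25% of all genes in WT and 7.65% in KO, and DESeq2 called 0 of 9 in both, against 1.9% and 1.18%. Gnas had the lowest WT difference, −0.83 ± 0.40 (adjusted p = 0.928), and −0.37 ± 0.34 in KO. Gpr3 had the highest KO difference, 0.83 ± 0.45 (adjusted p = 0.717), and 0.13 ± 0.61 in WT. Prkacb, at 0.68 ± 0.57, was highest in WT, and stood at −0.01 ± 0.48 in KO.

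Between GV and MII, the time over which much of the maternal mRNA is cleared, most of the 9 mRNAs differed less than the median gene on the spike-in scale. The mRNA was captured by its poly(A) tail. For the transcripts it assayed, the study reports that tails shortened over WT maturation and that this was impaired in KO. Tail length was not measured here, so changes in capture and in amount cannot be told apart. In WT 1 of 9 genes was called, Gnas, against 30.9% of 18816 genes tested. The median difference of the 9 was −0.16, and that of all genes was −1.06. Apart from Gnas and Adcy3, the WT differences ran from −0.38 ± 0.76 for Prkacb to 0.43 ± 0.60 for Prkaca, with Prkar1a at 0.06 ± 0.49, Prkar2a at −0.03 ± 0.50 and Prkar2b at 0.02 ± 0.50. These 7 genes lay between percentiles 69.7 and 93.5 of all tested genes, while Gnas lay at percentile 46.2 and Adcy3 at percentile 27.3.

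In KO 0 of 9 genes were called between GV and MII by edgeR, against 3.28% of 18777 genes, and 0 by DESeq2, against 16.3%. An unadjusted p under 0.05 was found for 0 of 9, against 24.6% of all genes. The median of the 9 was −0.23, and that of all genes was −1.17. The KO differences were 0.36 ± 0.84 for Gpr3, 0.22 ± 0.73 for Prkaca, −0.23 ± 0.61 for Prkar1a, −0.22 ± 0.61 for Prkar2a, −0.34 ± 0.67 for Prkar2b and −1.05 ± 0.81 for Prkacb. Without replicate 1 of KO MII, Gnas (−1.48, adjusted p = 0.00115) and Prkacb (−1.47, adjusted p = 0.0477) were called lower, in a fit that called 54.2% of all genes and put the median gene at −2.09. The genotype difference in this change was called for 0 of 9 genes and for 0.0% of 20807 genes, and 0 of 9 had an unadjusted p under 0.05, against 5.75% of all genes. DESeq2 called 0 of 9, against 0.721%. The edgeR estimates of this genotype difference ran from −0.76 ± 2.18 for Adcy3 to 0.52 ± 1.01 for Gpr3.

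The direction of these stage differences depended on the scale. TMM scaling, which sets the bulk of genes in each library to the same level, takes no account of a loss of total mRNA. On that scale, 5 of 9 genes had an adjusted p under 0.05 between GV and MII in WT, all higher at MII, against 13.1% of all genes higher by the same rule. They were Prkaca at 1.36 ± 0.33, Prkar2b at 0.99 ± 0.23, Prkar1a at 0.98 ± 0.18, Prkar2a at 0.86 ± 0.20 and Pde3a at 0.77 ± 0.18, and of these Prkaca alone passed the fold minimum (adjusted p = 0.0278). In KO the same 5 genes stood at 1.37 ± 0.37, 0.84 ± 0.38, 0.88 ± 0.25, 0.92 ± 0.27 and 1.17 ± 0.30 in that order, and 0 of the 9 passed an adjusted p of 0.05, against 5.06% of all genes. The WT and KO stage comparisons share no libraries, but each shares its GV libraries with the KO against WT comparison at GV.

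**Figure D3:**
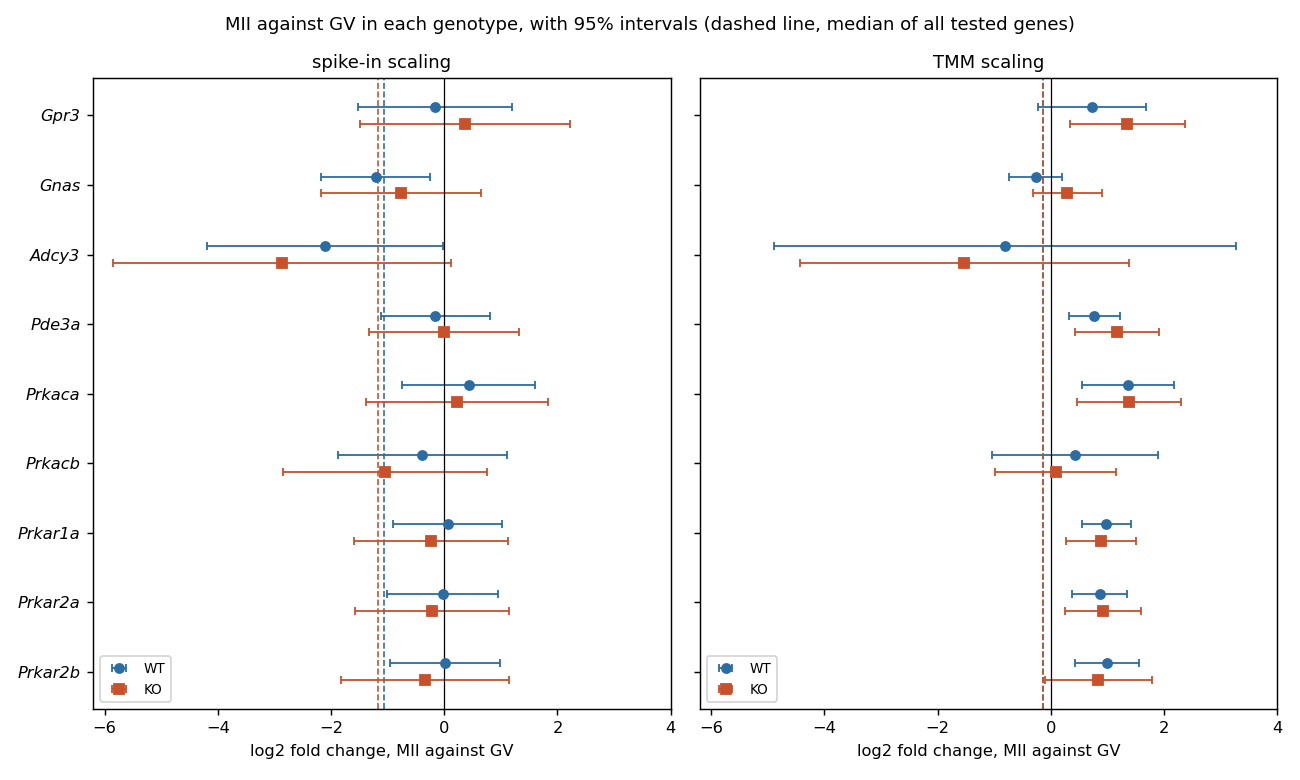
Log2 fold change of MII against GV (x axes) with 95% intervals for the 9 genes in WT (circles) and KO (squares), with spike-in scaling on the left and TMM scaling on the right, 2 libraries per group. Dashed lines mark the median of all tested genes, −1.06 in WT and −1.17 in KO on the spike-in scale, and Gnas in WT, at −1.21, lies below the WT line by less than its error, while Prkaca, at 0.43, lies above it.

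The make-up of the PKA mRNAs was described from counts per kb of exon within each library, which no scaling between libraries touches. Only Prkaca and Prkacb were taken as the catalytic class, and only Prkar1a, Prkar2a and Prkar2b as the regulatory class. Of the other listed PKA subunits and inhibitors, Prkx, at 13.2 ± 5.69 per kb in WT GV, and Prkar1b were left out of both classes. Prkaca made up 79.0% to 95.3% of the counts of Prkaca and Prkacb, with a median of 86.5%. Its share was 86.8% and 86.1% in the WT GV libraries and 89.7% and 95.3% at WT MII. In KO it was 79.8% and 84.6% at GV and 91.2% and 92.4% at MII. At GVBD it was 79.0% and 84.8% in WT and 87.6% and 82.2% in KO. In both genotypes, each MII library thus had a higher share of Prkaca than each GV library, while both WT GVBD libraries lay below both WT GV libraries. The share of 95.3%, in replicate 2 of WT MII, rests on 60 counts of Prkacb. Of the regulatory counts, Prkar1a made up 32.0% to 46.04%, Prkar2b 28.4% to 49.1% and Prkar2a 16.1% to 26.6%. Prkar2b exceeded Prkar1a only in replicate 1 of KO GV and replicate 2 of WT GVBD. Regulatory counts per catalytic count ranged from 3.69 to 14.0, with a median of 8.59. Divided by the longest transcript instead, the share of Prkaca ran from 67.0% to 91.7%, because the exons of Prkacb add up to 8772 bases and its longest transcript to 4347.

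**Figure D4:**
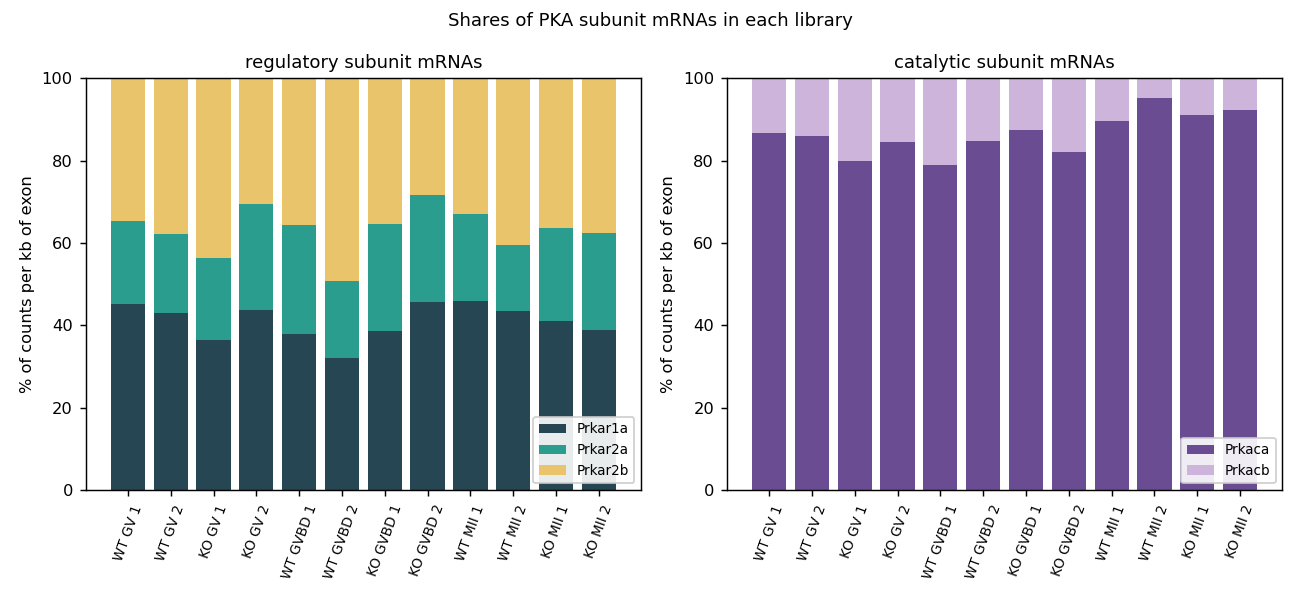
Share of each regulatory (left) and catalytic (right) PKA subunit among the counts per kb of exon of that class (y axes, percent) in each of the 12 libraries (x axes). Prkaca makes up 79.0% to 95.3% of the counts of Prkaca and Prkacb, and its share is higher in the MII libraries than in the GV libraries of the same genotype.

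The other genes of the pathway, 67 genes in 7 lists, were all found in the table, and 56 to 60 passed the filter in each comparison. In WT 10 of 56 were called between GV and MII, all lower, against 30.9% of all genes, with a median of −0.79 over the list beside −1.06 over all genes. The largest falls were those of Rapgef3, a cAMP-activated exchange factor, at −4.45 ± 0.73 (adjusted p = 2.29e-08), Gja4, the connexin 37 of the gap junction, at −3.87 ± 0.56 (adjusted p = 1.45e-10), and Gja1, connexin 43, at −3.08 ± 0.69 (adjusted p = 6.25e-05). By role, the 10 were 3 of 12 phosphodiesterases, 2 of 7 PKA targets and cAMP effectors, 2 of 6 cGMP and gap junction genes, 1 of 7 cyclases, 1 of 4 PKA subunits and inhibitors, 1 of 10 anchoring proteins and 0 of 10 receptors and G proteins. The cyclase was Adcy10, which read 392 and 520.4 spike-in-scaled counts at WT GV and 67.0 and 46.3 at WT MII. In KO 1 of 59 was called, Gja4 at −4.27 ± 0.82 (adjusted p = 0.0366), against 3.28% of all genes, and the list median was −1.15 beside −1.17. Without replicate 1 or 2 of KO GV none was called, against 0.196% and 0.27% of all genes. Without replicate 1 of KO MII 35 were called, against 54.2% of all genes, and without replicate 2 of KO MII 5 were called, against 16.9%. The 10 calls in WT became 5 without replicate 1 of WT GV, where 14.4% of all genes were called, and 6 without replicate 2 of WT GV or of WT MII, where 14.3% were called in each.

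Between genotypes, 0 of 59, 0 of 58 and 0 of 57 of the other pathway genes were called in edgeR at GV, GVBD and MII, with 9, 9 and 1 at an unadjusted p under 0.05, against 17.9%, 14.9% and 7.32% of all genes. DESeq2 called 3 at GV, against 3.48% of all genes, and 0 at GVBD and MII. Over all stages 1 of 60 was called, against 1.26% of all genes, the cyclase Adcy1, at 1.56 ± 0.34 (adjusted p = 0.0431), higher in KO. No gene of the list was called when any 1 of the WT libraries, the KO GV libraries or replicate 1 of KO GVBD was left out, and 2 were called without replicate 2 of KO MII. Adcy1 read 138 and 237, 122 and 146, and 110.1 and 71.8 in the WT libraries at GV, GVBD and MII, and 566 and 505, 605 and 242, and 378 and 144 in KO. At each stage both KO libraries lay above both WT libraries. Wee2, the PKA target that holds CDK1 inactive, differed by 0.28 ± 0.16 between KO and WT at GV (adjusted p = 0.406).

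The genes whose levels ran most like those of each gene over the 12 libraries were found by Pearson correlation of log2 TMM-scaled counts, as a description over libraries that share groups. For Pde3a these were Lsm14a (0.988), Arcn1 (0.983) and Alg10b (0.983), and for Gpr3 they were Tubgcp5 (0.957), Foxred2 (0.957) and Trim32 (0.950). Prkaca ran with Tsc22d1 (0.986), Commd7 (0.975) and Cep85 (0.965), and Prkacb with Ugp2 (0.853), Hnmt (0.851) and Pm20d1 (0.823). For Prkar1a they were Oat (0.985), Spats2 (0.972) and Nedd1 (0.968), for Prkar2a Dock9 (0.980), Blvra (0.978) and Atp2b1 (0.975), and for Prkar2b Cpne1 (0.918), Tut7 (0.916) and Lpl (0.909). Gnas ran with a clone-named gene (0.888), Pik3cb (0.858) and Sept14 (0.838), and Adcy3 fell short of the mean of 50 counts required. Among the 9 themselves, the highest values were 0.869 for Prkar1a with Prkar2a and 0.856 for Gpr3 with Pde3a, and the lowest was −0.134 for Prkacb with Prkar1a.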

How the data were processed

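The deposited table holds raw counts per gene, with the ERCC sequences listed beside the genes and no normalization by the authors. According to the study's methods, reads were trimmed, aligned to GRCm38 joined to the ERCC sequences, and kept when uniquely mapped, so reads shared by near-identical gene copies were lost. The submitters' processing notes name cutadapt 1.9, HISAT2 2.0.4 and StringTie 1.3.4d, and the use of strand is not given in the sources used here. The extraction protocol of the labels describes a bulk preparation, unlike the methods, which describe amplified full-length cDNA without molecular identifiers.

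All genes of the groups compared were fitted together with edgeR 4.0.16 (quasi-likelihood test, R 4.3.3, two-sided), with library sizes in proportion to ERCC counts, the scaling the study chose, and a low-count filter (filterByExpr) on total counts. A gene was called at a Benjamini-Hochberg adjusted p under 0.05 over all tested genes and an absolute log2 fold change of at least 1. Standard errors come from the F statistic. The study used DESeq2, which was run here (1.42.0) as an alternative. The other alternatives were TMM and median-of-ratios scaling, other filters, a single model of all 12 libraries, calls without the fold minimum, a replicate block, leaving out each library and, added after seeing the data, the filter on ERCC-scaled sizes. The fit was tested on simulated counts with large changes, drawn with the same spike-in sizes that the fit used. That test does not cover small changes or error in the spike-in scale.

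Gene positions, lengths and 3′ UTRs are those of GENCODE M21 on GRCm38. Symbols matched 52073 of 56691 genes (91.9%). The 9 genes and the pathway lists were chosen with earlier results of these data known. Named are the 9 genes in every comparison, Alkbh5, up to 3 called pathway genes per comparison with the largest change, the genes with the highest counts per kb of each list and the 3 genes most correlated with each of the 9 over 12 libraries, among 13273 genes that averaged at least 50 counts, with a symbol other than a Gm number, Rik name or identifier. Other pathway genes named for their place in a family, and the overlapping genes, were chosen after their values were seen.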

Additional observations from a re-analysis of the deposited data

How the results depend on the processing

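With 2 libraries in a group, a single library could decide a call, Adcy3 was counted too thinly to compare, and apart from Adcy3 the 95% intervals of KO against WT at MII reached from −1.48 (Prkar1a) to 2.74 (Gpr3) on the log2 scale. Blood cell markers and the endogenous counts per ERCC count differed between libraries, and their part was not tested. The stage of the oocytes in the KO pools was not measured. In the 9 comparisons, the count of called genes among the 9 was unchanged by any alternative except in MII against GV. In WT it was 1 (Gnas), 3 with median-of-ratios scaling (Prkaca, Prkar1a and Prkar2b, all higher), 1 with TMM scaling (Prkaca, higher), 0 without the filter on low counts, 0 with all 12 libraries in one model, and 0 to 1 leaving out single libraries. In KO it was 0, and 0 to 2 leaving out single libraries, 2 being without KO MII replicate 1. The titles number the libraries of each group 1 and 2, and the main fits did not take these numbers to pair the libraries. Between genotypes at the same stage, the deviations of same-numbered libraries had correlations of −0.221 (GV), 0.137 (GVBD) and −0.183 (MII). These were taken across genes on the TMM scale, which removes a shift of a whole library. They cannot show a shift shared by same-numbered libraries, and replicate 1 held more endogenous counts per ERCC count in every group. Whether the numbers pair the libraries is thus not known. The replicate block left the calls among the 9 as they were (Gnas in WT, adjusted p = 0.0475) and gave 3 called pathway genes in place of 1 for MII against GV in KO and 3 in place of 1 for KO against WT over all stages. For the other pathway genes, the 0 called for KO against WT at GV became 3 without the filter on low counts and 3 with DESeq2, and 0 to 1 leaving out single libraries, as at GVBD (0 to 1). The 0 called for GVBD against GV in KO became 1 without the filter, with at least 10 counts in every library and with DESeq2, and 0 to 1 leaving out single libraries. The 10 called for MII against GV in WT became 5 to 9 leaving out single libraries. The 1 called for MII against GV in KO became 4 with at least 10 counts in every library, 5 with DESeq2, 5 with all 12 libraries in one model and 0 to 35 leaving out single libraries, 35 being without KO MII replicate 1. The 1 called over all stages became 3 with TMM scaling, 3 with median-of-ratios scaling, 3 without the filter, 3 with at least 10 counts in every library, 5 with DESeq2 and 0 to 2 leaving out single libraries. The cause of these changes was not tested.

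Of 1064 alternative fits of the 9 genes, 100 changed the sign of the log2 difference, and 0 of these were of a called difference. With TMM scaling the differences that changed sign were Gpr3 −0.0769, Gnas −0.0349, Adcy3 −0.19 for KO against WT at GV, Prkar1a −0.15 for KO against WT at MII, Prkacb 0.12 for GVBD against GV in KO, Gpr3 0.73, Pde3a 0.77, Prkacb 0.42, Prkar2a 0.86 for MII against GV in WT, Gnas 0.29, Pde3a 1.17, Prkacb 0.0843, Prkar1a 0.88, Prkar2a 0.92, Prkar2b 0.84 for MII against GV in KO, and Prkar2b −0.0369 for KO against WT over all stages. With median-of-ratios scaling they were Gpr3 −0.077, Gnas −0.036, Adcy3 −0.19 for KO against WT at GV, Prkar1a −0.15 for KO against WT at MII, Prkacb 0.11 for GVBD against GV in KO, Gpr3 0.77, Pde3a 0.82, Prkacb 0.47, Prkar2a 0.91 for MII against GV in WT, Gnas 0.32, Pde3a 1.199, Prkacb 0.11, Prkar1a 0.91, Prkar2a 0.95, Prkar2b 0.87 for MII against GV in KO, Prkar2a 0.0273 for the KO minus WT difference in MII against GV, and Prkar2b −0.0549 for KO against WT over all stages. Both scalings raise MII against GV because they set the median gene near 0. With the replicate block they were Adcy3 −0.13 for KO against WT at GV, Adcy3 0.34 for KO against WT at GVBD, Adcy3 1.08 for KO against WT at MII, and Adcy3 0.44 for KO against WT over all stages. Leaving out single libraries, the ranges that crossed 0 were Gnas −0.0516 to 0.64, Adcy3 −1.94 to 1.37, Prkar2b −0.0878 to 1.16 for KO against WT at GV. They were Adcy3 −1.22 to 2.25 for KO against WT at GVBD. They were Gpr3 −0.0820 to 1.40, Adcy3 −1.47 to 6.29, Prkacb −0.0745 to 1.85, Prkar1a −0.33 to 0.45, Prkar2b −0.0569 to 0.60 for KO against WT at MII. They were Gpr3 −0.53 to 0.58, Adcy3 −3.16 to 0.57, Pde3a −0.45 to 0.84, Prkaca −0.0777 to 0.65, Prkar2a −0.30 to 0.47, Prkar2b −0.0265 to 0.26 for GVBD against GV in WT. Others were Gnas −0.70 to 0.0148, Adcy3 −2.00 to 1.03, Prkaca −0.36 to 0.92, Prkacb −0.39 to 0.37, Prkar2b −1.22 to 0.0255 for GVBD against GV in KO. Others were Gpr3 −0.76 to 0.27, Pde3a −0.47 to 0.10, Prkacb −1.64 to 0.28, Prkar1a −0.27 to 0.33, Prkar2a −0.55 to 0.36, Prkar2b −0.12 to 0.17 for MII against GV in WT. Others were Gpr3 −0.51 to 0.91, Pde3a −0.25 to 0.21, Prkaca −0.0580 to 0.46, Prkar1a −0.67 to 0.10, Prkar2a −0.57 to 0.06, Prkar2b −0.84 to 0.41 for MII against GV in KO. Others were Gpr3 −0.35 to 1.12, Gnas −0.27 to 0.93, Adcy3 −1.88 to 5.66, Pde3a −0.10 to 0.46, Prkaca −0.62 to 0.19, Prkacb −1.33 to 0.59, Prkar1a −0.73 to 0.0467, Prkar2a −0.57 to 0.33, Prkar2b −0.85 to 0.39 for the KO minus WT difference in MII against GV. Others were Adcy3 −0.76 to 0.53 for KO against WT over all stages.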
